A study of Mus musculus with 18 samples.

Results

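The genes described here are 10 protease inhibitor genes of mouse liver, the 5 copies of Serpina1 (Serpina1a, Serpina1b, Serpina1c, Serpina1d and Serpina1e) and 5 members of the Serpina3 family (Serpina3c, Serpina3g, Serpina3k, Serpina3m and Serpina3n). They were taken by gene symbol, and all 10 were found among the 25266 genes listed for each mouse, of which 20071 were above 0 in at least 1 mouse. The members were chosen by measured values, namely the change of Serpina1e between diets in FF mice and between genotypes under HFD, so both of these comparisons are given as a description and carry no p-value for a member. The comparisons of LKO CD with FF CD mice and of LKO HFD with LKO CD mice were tested, although each shares mice with a comparison that chose the genes.

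Liver RNA of 18 male C57BL/6J mice was sequenced. The mice formed 4 groups, with 4 FF CD, 4 LKO CD, 5 FF HFD and 5 LKO HFD mice. FF mice carry loxP-flanked alleles of Ppp6r3, which encodes SAPS3, a regulatory subunit of the phosphatase PP6. LKO mice carry the same floxed alleles plus Alb-Cre, whose albumin promoter is active in hepatocytes, and the study asked whether this deletion alters the response of the liver to dietary fat. No group carries Alb-Cre without the floxed alleles. The control diet (CD) held 10 kcal% fat and the high-fat diet (HFD) 32.5 kcal% fat, and mice started on either diet at 8 weeks of age and stayed on it for 16 weeks.

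Serpins inhibit proteases by a bait. A flexible stretch, the reactive centre loop, is cut by the protease after the residue called P1, and the inhibitor then traps the enzyme in a covalent complex, so the residues around P1 largely set which protease is bound. Serpina1 encodes alpha-1-antitrypsin, which hepatocytes secrete into the blood in large amounts and which protects tissue from neutrophil elastase. Humans have a single gene for it, whereas the mouse has several near-identical copies. The Serpina3 family corresponds to human alpha-1-antichymotrypsin and is likewise expanded in the mouse.

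All members lie on chromosome 12 of GRCm38. In the GENCODE annotation the Serpina1 copies occupy the minus strand, from the start of Serpina1b at 103728156 to the end of Serpina1e at 103958975. Serpina3c lies on the minus strand from 104146382 to 104153870. Serpina3g, Serpina3k, Serpina3m and Serpina3n lie on the plus strand between 104236245 and 104414329. The annotated models of Serpina3k and Serpina3m begin at the same base, 104338486, and that of Serpina1b runs to 103830373, across Serpina1d, so reads in the shared parts can be assigned to either gene.

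The copies of Serpina1 are close to identical outside the loop and differ within it. Between any 2 of them 19 to 46 of 1239 aligned coding bases differed, an identity of 96.29% to 98.47%, and Serpina1a and Serpina1c were the closest pair. The loop is shown because it is where the copies differ most visibly. Each line gives 57 bases of coding sequence 5′ to 3′ from the GENCODE transcripts, read from the hinge through 4 codons past P1, in the last exon. Capitals mark the 13 positions at which the 5 copies differ, and P1 is codon 15.
Serpina1a: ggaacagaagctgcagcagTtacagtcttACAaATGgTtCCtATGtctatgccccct
Serpina1b: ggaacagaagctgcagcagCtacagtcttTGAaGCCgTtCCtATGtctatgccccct
Serpina1c: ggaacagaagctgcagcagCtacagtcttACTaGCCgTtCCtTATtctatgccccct
Serpina1d: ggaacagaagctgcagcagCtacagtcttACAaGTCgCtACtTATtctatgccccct
Serpina1e: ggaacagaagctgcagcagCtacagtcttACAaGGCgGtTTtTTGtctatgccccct

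These loops lie on the minus strand, with that of Serpina1b at chr12:103728341-103728397 and that of Serpina1e at chr12:103947117-103947173. Serpina1a and Serpina1b share the P1 codon ATG, Serpina1c and Serpina1d share TAT, and Serpina1e alone has TTG.

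The Serpina3 members differed more, with an identity of 80.84% to 91.83%. Capitals in their loops mark the 33 of 57 positions at which the 5 members differ, with P1 again at codon 15.
Serpina3c: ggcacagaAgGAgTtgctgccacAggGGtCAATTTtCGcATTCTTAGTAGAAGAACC
Serpina3g: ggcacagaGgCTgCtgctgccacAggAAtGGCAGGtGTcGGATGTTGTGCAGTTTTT
Serpina3k: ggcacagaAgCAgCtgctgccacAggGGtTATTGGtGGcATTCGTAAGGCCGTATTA
Serpina3m: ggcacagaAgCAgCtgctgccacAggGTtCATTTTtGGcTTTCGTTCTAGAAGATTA
Serpina3n: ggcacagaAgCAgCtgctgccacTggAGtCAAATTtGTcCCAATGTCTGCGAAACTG

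Serpina3k and Serpina3m shared the P1 codon CGT, and the other 3 had CTT (Serpina3c), TGT (Serpina3g) and ATG (Serpina3n). The loop of Serpina3g lies at chr12:104241072-104241128 and that of Serpina3k at chr12:104345269-104345325, both on the plus strand.

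The sequence ahead of the Serpina1 copies is also shared. RefSeq promoters of GRCm38.p6, windows around the annotated start, were found for 8 of the 10 members, all but Serpina3k and Serpina3m. Over a stretch of 116 bases upstream of the RefSeq start, aligned on a shared GTTAAT, Serpina1e differed from Serpina1a and Serpina1c at 2 bases each, from Serpina1b at 3 and from Serpina1d at 6. Serpina1b and Serpina1e are printed because one was the steadiest and the other the most variable copy across mice. Capitals mark the 10 positions that vary among the 5 copies.
Serpina1b: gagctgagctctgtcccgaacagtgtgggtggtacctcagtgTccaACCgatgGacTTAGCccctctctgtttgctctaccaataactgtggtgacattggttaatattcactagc
Serpina1e: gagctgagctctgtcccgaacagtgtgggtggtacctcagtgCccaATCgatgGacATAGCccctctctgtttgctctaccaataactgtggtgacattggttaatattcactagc

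Both are read from the minus strand, at chr12:103738200-103738315 for Serpina1b and chr12:103956960-103957075 for Serpina1e. Several motifs of liver transcription factors were searched in the promoters on both strands. The HNF1 core motif GTTAAT was present in 6 of the 8 members (the 5 Serpina1 copies and Serpina3c) against 7.1% of 32851 mouse promoters of the same length, and the forkhead motif TGTTTGC in 5 (the Serpina1 copies) against 5.07%. The 2 motifs do not overlap, and both are visible in the sequences above, where all 5 copies are identical over them. The C/EBP motif TTGCNNAA was found in 4 (Serpina1a, Serpina1b, Serpina1d and Serpina1e) against 10.8%. It lay ahead of the RefSeq start in Serpina1b (offset -161), Serpina1d (-149) and Serpina1e (-211). In Serpina1a it lay past the start, at offset 24. Since the sequence ahead of the Serpina1 copies is shared, their hits there are not independent. Setting these counts beside the shares of all promoters therefore does not measure an enrichment. The STAT motif TTCNNNGAA was found in 1 of the 8, Serpina3g, against 8.3%, a count near that share. Its site stands in capitals in the following 58 bases of the plus strand at chr12:104236089-104236146, shown because Serpina3g was the member called with diet in LKO mice.
Serpina3g: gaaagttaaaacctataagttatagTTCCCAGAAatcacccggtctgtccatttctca

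A match of letters does not show that a factor binds there.

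Levels are given as RPKM, the reads of a gene scaled by its length and by the depth of the library, as the authors deposited them. Depth recovered from the steps of low values was 23.4 to 37.0 M reads per mouse. Ppp6r3 was 8.38 to 10.98 RPKM in FF CD and 3.88 to 4.08 in LKO CD mice, and 7.55 to 8.82 in FF HFD and 4.22 to 4.87 in LKO HFD mice, so the FF and LKO ranges did not overlap on either diet. The 10 hepatocyte markers were present in every library, with summed levels of 37489 to 57545 RPKM, and fewer cells of a type cannot be told apart from less RNA per cell in these bulk samples. Reads that match several copies limit the value of each copy. Of all stretches of 50 coding bases in Serpina1c, 25.3% occurred in no other Serpina gene, and the share was 29.2% in Serpina1a, 49.0% in Serpina1d, 55.3% in Serpina1b and 61.0% in Serpina1e. It was 75.4% to 92.8% in the Serpina3 members. For Serpina3c, Serpina3g and Serpina3m no gene length from 300 to 4000 bases gave whole reads in all mice (largest distance from a whole read 0.284 to 0.304), whereas Serpina3a, Serpina9 and Serpina4-ps1 gave whole reads within 0.02. Why the 3 members did not was not tested.

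Serpina1e was the most variable of the 9 tested members, with a standard deviation of 2.43 over the 18 mice on the scale of log2(RPKM + 1), against 0.14 to 0.58 for the other 8. Its level was 3169, 3272, 5356 and 3311 RPKM in the 4 FF CD mice and 1125, 607, 940 and 312 RPKM in the 4 LKO CD mice. The highest LKO CD mouse thus stood far below the lowest FF CD mouse. Of all tested genes, 1.7% had every LKO CD mouse below every FF CD mouse. On HFD, Serpina1e was 190, 17.5, 52.1, 77.4 and 57.7 RPKM in the FF mice and 1301, 1656, 1573, 1867 and 1789 RPKM in the LKO mice. The 4 groups did not overlap anywhere, in the order FF CD, LKO HFD, LKO CD and FF HFD. Their means were 3777 ± 1055 (SD, n = 4), 1637 ± 220 (SD, n = 5), 746 ± 360 (SD, n = 4) and 79.0 ± 65.9 (SD, n = 5) RPKM. How many of all tested genes separate into 4 such groups was not counted. Every FF HFD mouse was below every FF CD mouse for 4.24% of them. Every LKO HFD mouse was above every FF HFD mouse for 2.65%, and above every LKO CD mouse for 7.71%. The comparisons of FF HFD with FF CD and of LKO HFD with FF HFD mice chose Serpina1e. By mean RPKM Serpina1e ranked 11 among all listed genes in FF CD mice and 630 in FF HFD mice.

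Between LKO CD and FF CD mice the mean of Serpina1e was 5.06-fold lower, a log2 fold change of -2.46 (standard error 0.489, 95% interval -3.48 to -1.43, limma adjusted p = 0.0397). This difference was in the same direction in every fit run, but its call was not secure. With each of the 18 mice left out in turn it was called in 6 fits, the log2 fold change ranged from -2.71 to -2.09 and the adjusted p from 0.00538 to 0.187 (limma), and the call was lost without any 1 of the 4 FF CD mice, LKO CD mouse 2 or 4, FF HFD mouse 3, 4 or 5, or LKO HFD mouse 2, 3 or 5. Within LKO mice Serpina1e was 2.19-fold higher on HFD than on CD. Its log2 fold change was 1.28 (standard error 0.464, 95% interval 0.30 to 2.25), which did not pass the adjusted threshold (limma adjusted p = 0.119), although each of the 5 LKO HFD mice was above each of the 4 LKO CD mice. Of all 11090 tested genes, 7.71% had every LKO HFD mouse above every LKO CD mouse. Exact two-sided permutation of the mice gave p = 0.0286 for the first comparison and p = 0.00794 for the second, each the smallest of which its design is capable, in a family of 20 such tests that were not adjusted. The FF CD mice of the first comparison and the LKO HFD mice of the second also entered the choice of Serpina1e. Its limma and permutation p-values in both comparisons may therefore be too small. In the comparisons that chose the genes, the mean was 47.8-fold lower in FF HFD than in FF CD mice (log2 fold change -5.91, standard error 0.464) and 20.7-fold higher in LKO HFD than in FF HFD mice (4.73, standard error 0.437).

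**Figure D1:**
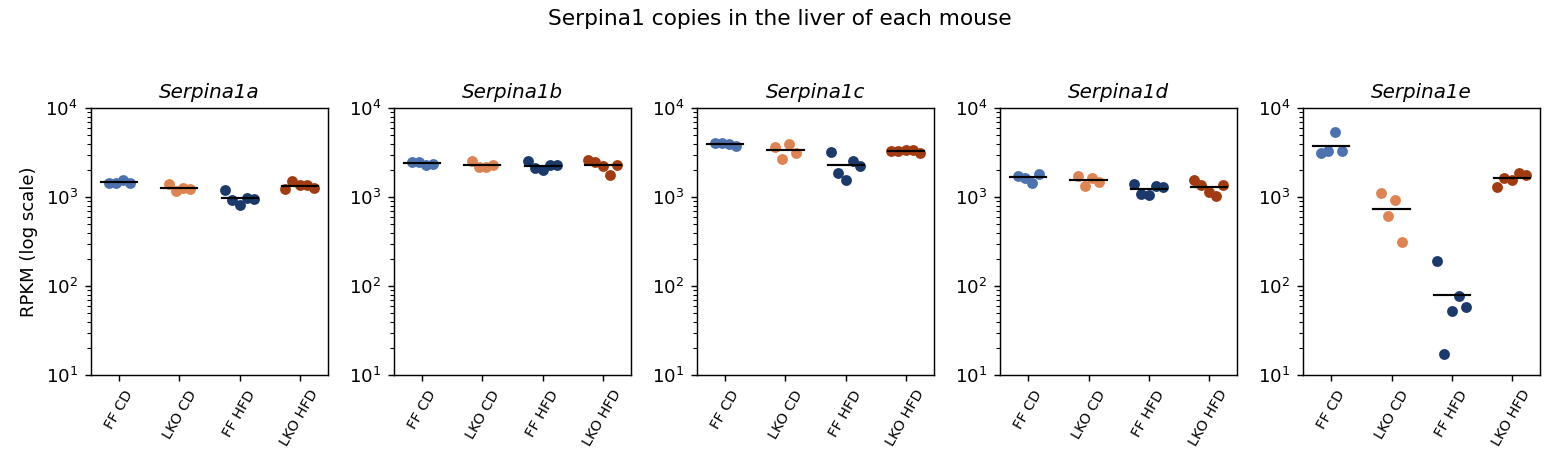
RPKM of each Serpina1 copy on a log scale (vertical axis) in each mouse (points) of the 4 groups (horizontal axis), with the group mean as a line. Serpina1e spans 17.5 to 5356 RPKM with 4 separate groups, while the other copies stay between 823 and 4119 RPKM.

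Serpina1b was the steadiest copy. It was 2326 to 2496 RPKM in FF CD, 2188 to 2581 in LKO CD, 2000 to 2551 in FF HFD and 1796 to 2604 in LKO HFD mice, and all 4 ranges overlapped. Its log2 fold change was -0.067 (95% interval -0.31 to 0.18) between LKO CD and FF CD and -0.021 (95% interval -0.26 to 0.21) between LKO HFD and LKO CD mice. Neither passed the test (limma adjusted p = 0.960 and 0.935).

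Serpina1a and Serpina1c share most of their sequence, and like the other 3 copies they had their lowest mean in FF HFD mice. Serpina1a was 1432, 1436, 1558 and 1462 RPKM in FF CD mice, 1405, 1165, 1263 and 1226 in LKO CD mice, 1201, 937, 823, 986 and 947 in FF HFD mice and 1250, 1512, 1380, 1369 and 1254 in LKO HFD mice. All LKO CD mice were below all FF CD mice, as was so for 1.7% of all tested genes, and the log2 fold change of -0.22 did not pass the test (standard error 0.112, limma adjusted p = 0.682). Serpina1c was 4119, 4091, 3930 and 3791 RPKM in FF CD mice, 3646, 2671, 3982 and 3124 in LKO CD mice, 3193, 1883, 1574, 2535 and 2231 in FF HFD mice and 3299, 3297, 3427, 3424 and 3134 in LKO HFD mice. FF CD and LKO CD mice overlapped for this copy (log2 fold change -0.26, standard error 0.171, limma adjusted p = 0.806). With diet in LKO mice the log2 fold changes were 0.097 for Serpina1a (95% interval -0.13 to 0.32, limma adjusted p = 0.627) and -0.0013 for Serpina1c (95% interval -0.34 to 0.34, limma adjusted p = 0.997). In FF mice the same diet went with log2 values of -0.60 for Serpina1a and -0.84 for Serpina1c.

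Serpina1d was 1448 to 1845 RPKM in FF CD, 1341 to 1743 in LKO CD, 1067 to 1402 in FF HFD and 1029 to 1554 in LKO HFD mice. Its means in both HFD groups were close, 1239 ± 155 (SD, n = 5) in FF and 1297 ± 208 (SD, n = 5) in LKO mice. Its log2 fold change was -0.27 with diet in LKO mice (95% interval -0.55 to 0.011, limma adjusted p = 0.242) and -0.11 between LKO CD and FF CD mice (95% interval -0.40 to 0.18, limma adjusted p = 0.937).

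Since the copies share reads, their sum is less affected by how reads were divided. The 5 copies together were 12798 to 14619 RPKM in FF CD mice, 7972 to 10499 in LKO CD mice, 5515 to 8538 in FF HFD mice and 9485 to 10355 in LKO HFD mice. They made up 3.58% ± 0.337 (SD, n = 4), 2.51% ± 0.356 (SD, n = 4), 1.94% ± 0.235 (SD, n = 5) and 2.72% ± 0.0756 (SD, n = 5) of all RPKM in these groups. Serpina1e was 24.4% to 36.6% of the sum in FF CD mice, 3.69% to 10.7% in LKO CD mice, 0.287% to 2.23% in FF HFD mice and 13.001% to 19.7% in LKO HFD mice. Without Serpina1e, the sum of the other 4 copies was 9263 to 9802 RPKM in FF CD, 7365 to 9375 in LKO CD, 5463 to 8348 in FF HFD and 7618 to 8707 in LKO HFD mice, and the FF CD and LKO CD ranges then overlapped. The mean sum of all 5 copies was 0.693 of that of FF CD mice in LKO CD mice and 0.513 in FF HFD mice. No test was made on the sums.

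**Figure D2:**
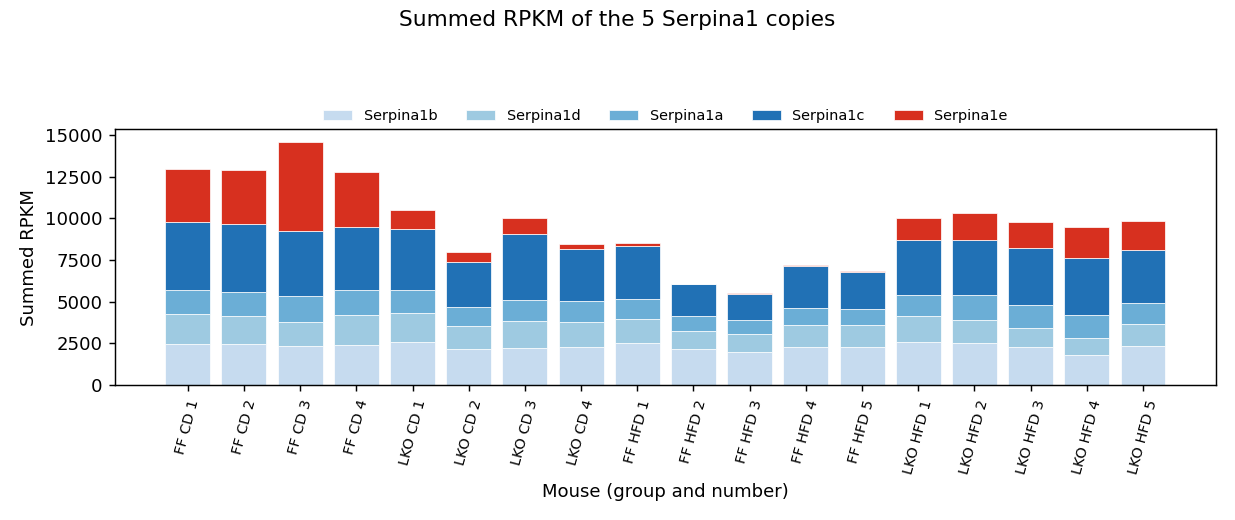
Summed RPKM of the Serpina1 copies (vertical axis) in each of the 18 mice (horizontal axis), stacked by copy with Serpina1e on top. Serpina1e takes 24.4% to 36.6% of the bar in FF CD mice and at most 2.23% in FF HFD mice, and the bars of the FF CD mice reach 12798 RPKM or more.

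Serpina3k, related to the inhibitors of tissue kallikrein, was the most abundant member of its family and 9th of all tested genes by mean RPKM. It was 5549, 5785, 5043 and 3880 RPKM in FF CD mice and 3987, 3262, 4221 and 3214 RPKM in LKO CD mice. In FF HFD mice it was 2394, 1289, 1444, 3199 and 2636 RPKM, and in LKO HFD mice 4175, 3716, 3974, 3293 and 4220 RPKM. The FF HFD range lay below all other groups, while FF CD, LKO CD and LKO HFD mice overlapped one another. Of all tested genes, 4.24% had every FF HFD mouse below every FF CD mouse. Every LKO HFD mouse was above every FF HFD mouse for 2.65% of them. Between LKO CD and FF CD mice the log2 fold change was -0.46 (95% interval -0.94 to 0.027, limma adjusted p = 0.682). With diet in LKO mice it was 0.083 (95% interval -0.38 to 0.54, limma adjusted p = 0.858). In the comparisons used to choose the genes it was -1.28 (standard error 0.219) between FF HFD and FF CD mice and 0.90 (standard error 0.207) between LKO HFD and FF HFD mice. Serpina3k was 78.1% to 95.9% of the summed RPKM of the 5 Serpina3 members in every mouse, so that sum followed it, at 4137 to 6136 RPKM in FF CD, 3502 to 4464 in LKO CD, 1651 to 3563 in FF HFD and 3580 to 4900 in LKO HFD mice.

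Serpina3g, known as an inhibitor of lysosomal cysteine cathepsins inside cells of the immune system, was low in all livers. Its level was 1.46, 0.851, 1.22 and 0.938 RPKM in FF CD mice, 0.857, 1.49, 1.19 and 2.29 RPKM in LKO CD mice, 3.23, 3.50, 3.72, 2.92 and 4.31 RPKM in FF HFD mice and 3.25, 2.89, 2.55, 2.52 and 2.05 RPKM in LKO HFD mice. These values rest on an estimated 44.9 to 251 reads per mouse, from the depth and the annotated length. It was the member called with diet in LKO mice, where the mean rose 1.82-fold on the RPKM scale and the log2 fold change of RPKM + 1 was 0.60 (standard error 0.140, 95% interval 0.30 to 0.89, limma adjusted p = 0.0304). On the scale of the call, this fold change was just past the limit of 1.5-fold. One LKO CD mouse, number 4, lay within the range of the LKO HFD mice. The call was made in 13 of the 18 fits with a mouse left out, where the log2 fold change was 0.47 to 0.75 and the adjusted p 0.0184 to 0.107 (limma), and it was lost when mouse 1 or 3 of LKO CD or mouse 1, 2 or 3 of LKO HFD was left out. Serpina3g was not called between LKO CD and FF CD mice (log2 fold change 0.19, 95% interval -0.12 to 0.50, limma adjusted p = 0.867). Every FF HFD mouse was above every FF CD mouse, as was so for 14% of all tested genes, with a mean 3.17-fold higher.

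Several sums of markers of other cells reached higher values on HFD, as Serpina3g did. The summed RPKM of the 8 Kupffer cell or macrophage markers was 56.5 to 78.9 in FF CD, 52.7 to 78.3 in LKO CD, 69.2 to 137 in FF HFD and 70.01 to 125 in LKO HFD mice, with all 8 above 0.1 RPKM in at least 1 mouse. For the 8 neutrophil markers it was 0.971 to 2.12, 1.14 to 2.12, 1.97 to 7.54 and 3.16 to 6.27 in the same order, with 2 of them, Ly6g and Mpo, under 0.1 RPKM in every mouse. The 6 endothelial markers summed to 13.7 to 28.6, 11.05 to 30.3, 35.8 to 57.7 and 28.9 to 38.4. Those of T, B or NK cells summed to 2.69 to 3.01, 2.09 to 3.50, 1.51 to 3.84 and 2.43 to 4.19 RPKM in the same order. Those of exocrine pancreas went the other way in FF mice, at 0.226 to 0.524, 0.302 to 0.742, 0.0340 to 0.0989 and 0.0935 to 0.353 RPKM. The 5 cholangiocyte markers summed to 16.0 to 26.0 in FF CD, 16.2 to 31.4 in LKO CD, 17.5 to 61.5 in FF HFD and 15.3 to 65.9 in LKO HFD mice. The 6 stellate cell markers summed to 57.1 to 81.6, 56.99 to 94.4, 68.6 to 102 and 50.4 to 98.8 in the same order. The part of these cells in the level of Serpina3g was not tested.

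Serpina3n, an acute phase inhibitor that binds granzyme B, was 152, 214, 117 and 134 RPKM in FF CD mice, 129, 130, 110 and 127 in LKO CD mice and 175, 169, 159, 174 and 150 in FF HFD mice. The LKO HFD mice were spread far wider, at 110, 227, 289, 139 and 479 RPKM. The lowest of them was level with the lowest LKO CD mouse. Its log2 fold change with diet in LKO mice, 0.81 (standard error 0.294, 95% interval 0.19 to 1.43), did not pass the test (limma adjusted p = 0.1201), and without LKO HFD mouse 1 it was 1.05 and was called (limma adjusted p = 0.0277, range over the mice left out 0.0277 to 0.278). Between LKO CD and FF CD mice it was -0.28 (95% interval -0.93 to 0.37, limma adjusted p = 0.920).

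Serpina3m was 97.7 to 150 RPKM in FF CD, 131 to 180 in LKO CD, 142 to 190 in FF HFD and 145 to 201 in LKO HFD mice. The ranges overlapped between neighbouring groups in the order of the means. Neither tested comparison passed, with log2 fold changes of 0.27 (95% interval -0.038 to 0.59, limma adjusted p = 0.734) between LKO CD and FF CD and 0.19 (95% interval -0.10 to 0.49, limma adjusted p = 0.447) between LKO HFD and LKO CD mice.

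Serpina3c had a mean of 0.491 RPKM, below the limit of 0.5 RPKM set for the test across genes. It was 0.459, 0.472, 1.30 and 0.909 RPKM in FF CD mice, 0.413 to 0.571 in LKO CD mice, 0.211 to 0.320 in FF HFD mice and 0.310 to 0.702 in LKO HFD mice, on an estimated 11.8 to 67.3 reads. Its group ranges overlapped in both tested comparisons (exact two-sided permutation test, p = 0.371 for LKO CD against FF CD and p = 0.397 for LKO HFD against LKO CD).

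**Figure D3:**
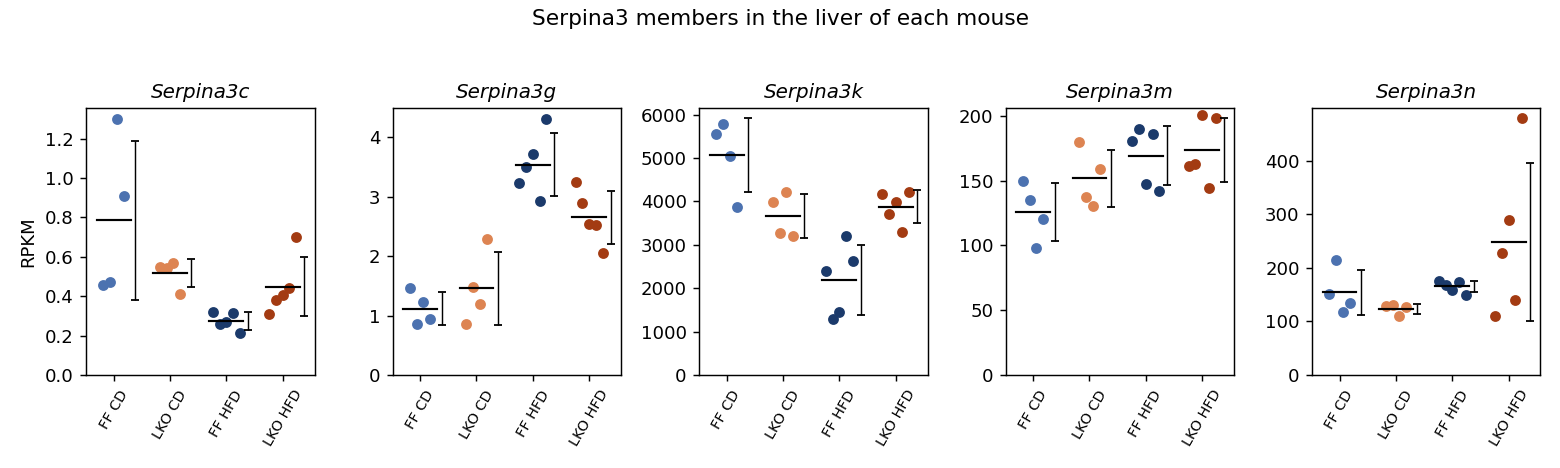
RPKM of each Serpina3 member (vertical axis, own scale for each gene) in each mouse (points) of the 4 groups (horizontal axis), with the group mean as a line and the SD as a bar at its right. Serpina3k is lowest in FF HFD mice (1289 to 3199 RPKM), Serpina3g is highest there (2.92 to 4.31 RPKM), and Serpina3n reaches 479 RPKM in 1 LKO HFD mouse.

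Counted by a fold change above 1.5 and an adjusted p under 0.05 in limma, 1 of the 9 tested members was called lower in LKO CD than in FF CD mice (Serpina1e) and 0 higher, against 0.135% of all 11090 tested genes called lower and 0.0902% called higher. The median log2 fold change was -0.22 over the 9 members and 0.035 over all tested genes. Between LKO HFD and LKO CD mice 1 member was called higher (Serpina3g) and 0 lower, against 0.965% and 0.307% of all tested genes, and the medians were 0.097 and 0.067. For the comparisons that chose the members, the counts are a description. Between FF HFD and FF CD mice 1 member was called higher (Serpina3g) and 4 lower (Serpina1a, Serpina1c, Serpina1e and Serpina3k), where 5.11% and 1.49% of all tested genes were called. Between LKO HFD and FF HFD mice 2 were called higher (Serpina1e and Serpina3k) and 0 lower, where the shares were 0.902% and 1.17%. The 2 became 1 without FF HFD mouse 2 or 3 or LKO HFD mouse 3. Serpina1c, at a log2 fold change of 0.58 there, was just under the limit of 1.5-fold, and Serpina1a, at -0.60 between diets in FF mice, was just past it.

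**Figure D4:**
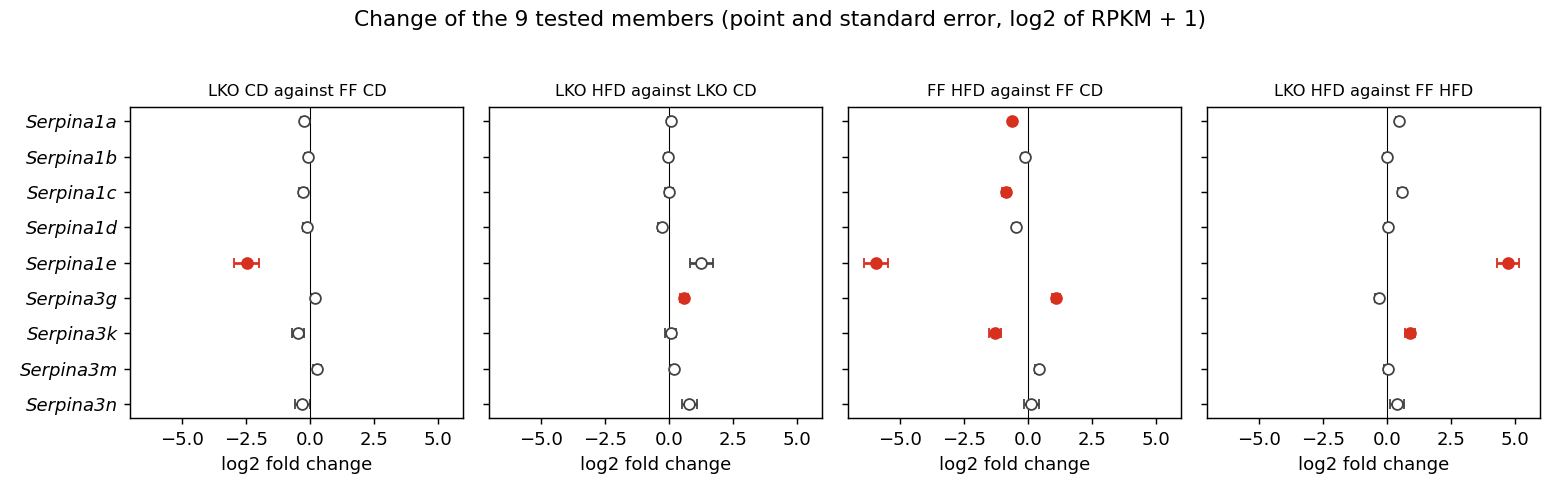
Log2 fold change of RPKM + 1 (horizontal axis, point with its standard error) of the 9 tested members (vertical axis) in the 4 comparisons, filled where called. In the 2 comparisons at the left, which were tested, Serpina1e (-2.46) and Serpina3g (0.60) are filled, and those at the right are a description.

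Of 16 other listed genes of clade A, the serpin group that holds these families, 7 were tested, 6 of them on the same stretch of chromosome 12, and none was called between LKO CD and FF CD or between LKO HFD and LKO CD mice. Between FF HFD and FF CD mice 3 were called lower, against 1.49% of all tested genes. Between LKO HFD and FF HFD mice 3 were called higher, against 0.902%. Genes of this list and of those that follow are named because they were called in some comparison. Their p-values do not allow for that choice. Serpina4-ps1, a pseudogene 139.8 kb from Serpina1e by their 3′ ends, was 63.5 ± 26.5 (SD, n = 4) RPKM in FF CD, 35.0 ± 29.1 (SD, n = 4) in LKO CD, 3.86 ± 3.31 (SD, n = 5) in FF HFD and 34.4 ± 18.04 (SD, n = 5) in LKO HFD mice. It fell between diets in FF mice (log2 fold change -3.82, standard error 0.520, limma adjusted p = 9.71e-05) and was higher in LKO than in FF mice under HFD by 2.92 (standard error 0.490, limma adjusted p = 0.00226). Serpina11 lies between the Serpina1 copies and the Serpina3 members, and its log2 fold changes in the same comparisons were -0.99 (limma adjusted p = 0.000240) and 0.85 (limma adjusted p = 0.00237). Serpina12, which encodes the adipokine vaspin, fell between diets in FF mice (-0.90, limma adjusted p = 0.00983), and its value of 0.44 between LKO HFD and FF HFD mice did not pass (limma adjusted p = 0.276).

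**Figure D5:**
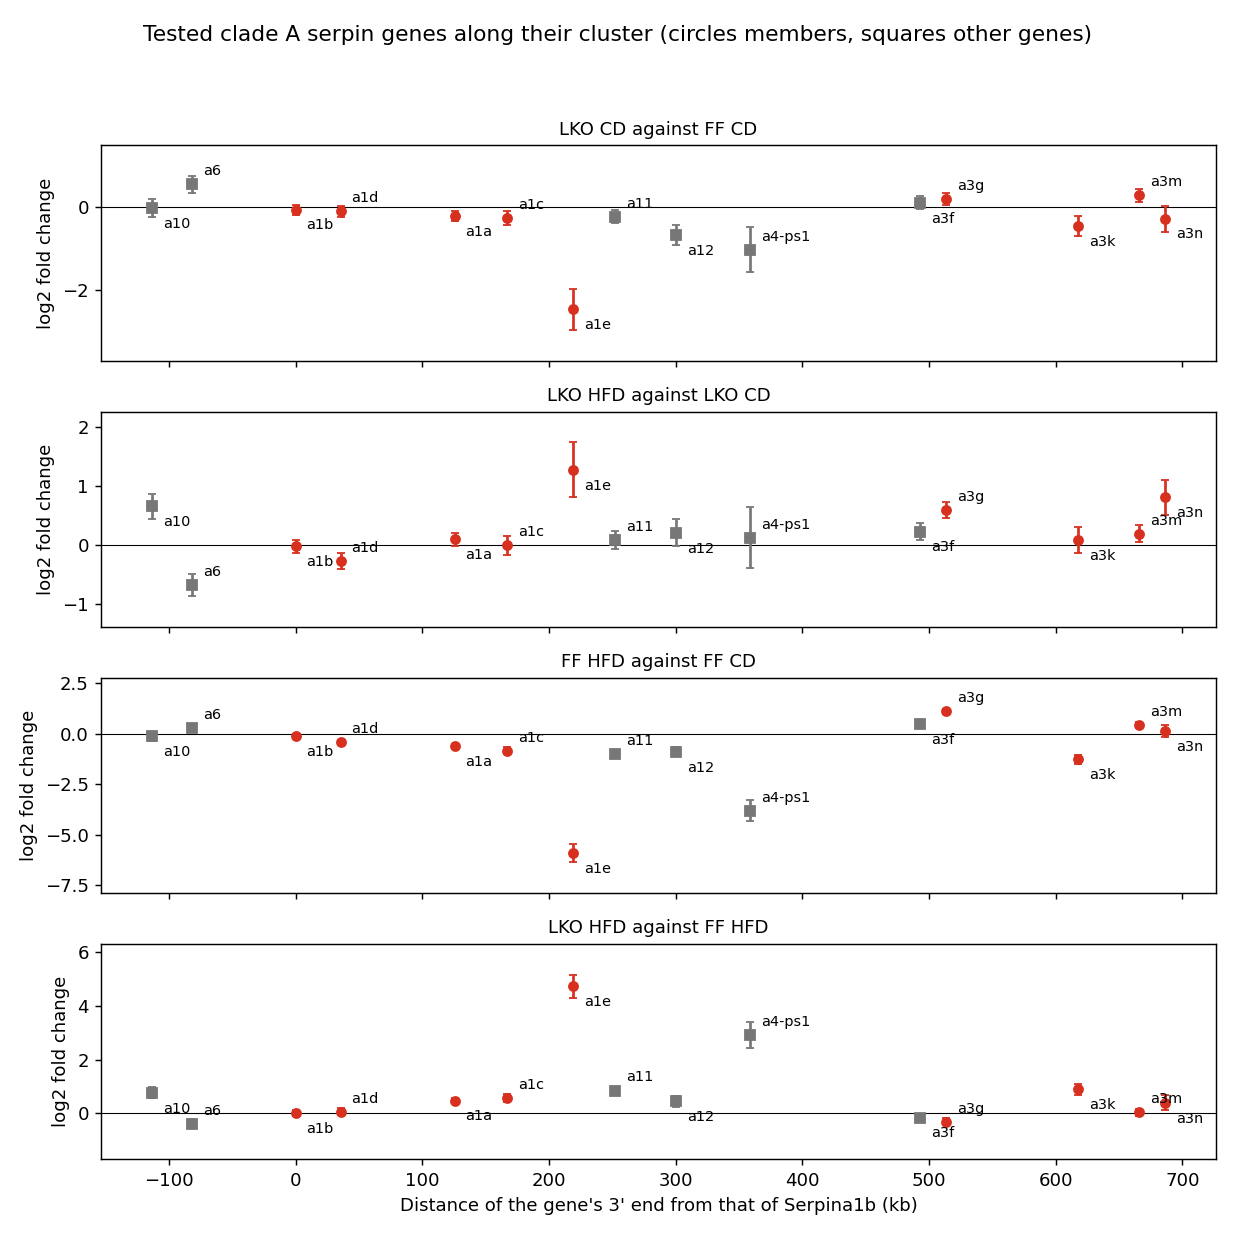
Log2 fold change with its standard error (vertical axes, own scale per panel) of the 15 tested clade A serpin genes of chromosome 12 against the distance of their 3′ end from that of Serpina1b (horizontal axis, kb), for the 4 comparisons. Circles are members and squares other genes, labelled without the letters Serpin. Serpina1e is the farthest from 0 in each panel, at -2.46, 1.28, -5.91 and 4.73.

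Serpins of other clades were tested for 14 of 15 listed genes. Serpinh1, the collagen chaperone, rose with diet in both genotypes, from 2.21 ± 0.399 (SD, n = 4) to 5.07 ± 0.631 (SD, n = 5) RPKM in FF mice (log2 fold change 0.92, limma adjusted p = 0.000915) and from 2.80 ± 0.874 (SD, n = 4) to 4.82 ± 1.24 (SD, n = 5) RPKM in LKO mice (0.62, limma adjusted p = 0.0427). Serpine2, the protease nexin, fell with diet in FF mice (-1.37, limma adjusted p = 0.00326). In all, 4 of the 14 were called higher and 1 lower between FF HFD and FF CD mice, 1 higher between LKO HFD and LKO CD mice, 1 higher and 1 lower between LKO HFD and FF HFD mice, and none between LKO CD and FF CD mice. Of all tested genes, 5.11% were called higher and 1.49% lower between FF HFD and FF CD mice. The shares were 0.965% and 0.307% between LKO HFD and LKO CD mice, and 0.902% and 1.17% between LKO HFD and FF HFD mice. The same shares apply to the lists that follow.

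Among target and liver proteases, 14 of 22 listed genes were tested. Between FF HFD and FF CD mice 1 was called higher, Ctss, the lysosomal cathepsin S (log2 fold change 0.78, limma adjusted p = 0.0157), and 4 lower. Those that fell included Cela1, an elastase (-1.08, limma adjusted p = 0.0148), and F7, coagulation factor VII (-0.68, limma adjusted p = 0.00340). None of the 14 was called in any of the other 3 comparisons.

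Secretory proteins such as alpha-1-antitrypsin are folded in the endoplasmic reticulum, and all 20 listed genes of export and quality control were tested. Derl3, a part of the degradation machinery there, was 0.929 ± 0.350 (SD, n = 4) RPKM in LKO CD and 7.58 ± 6.21 (SD, n = 5) RPKM in LKO HFD mice, a log2 fold change of 1.82 (limma adjusted p = 0.0254). Pdia4, a disulfide isomerase, rose by 0.85 in the same comparison (limma adjusted p = 0.0408). In all, 3 of the 20 were called higher between LKO HFD and LKO CD mice and 5 between LKO HFD and FF HFD mice, where Hspa5, the chaperone BiP, was among them (0.87, limma adjusted p = 0.0482). None was called lower in either, and none was called between diets in FF mice or between genotypes under CD.

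Of 24 listed liver transcription factors and cytokine or hormone receptors and regulators, 22 were tested. Stat3, which carries the signal of interleukin-6 to acute phase genes, rose with diet in LKO mice from 13.4 ± 1.11 (SD, n = 4) to 29.4 ± 11.04 (SD, n = 5) RPKM (log2 fold change 0.996, limma adjusted p = 0.0266). Its value between diets in FF mice was 0.24 (limma adjusted p = 0.482). Between LKO HFD and FF HFD mice Stat3 was not called either (0.66, limma adjusted p = 0.0874). Socs2, a feedback inhibitor of growth hormone signalling, was higher in LKO than in FF mice under HFD (1.33, limma adjusted p = 0.0314), and Bcl6, a repressor, fell between diets in FF mice (-1.02, limma adjusted p = 0.0313). The counts were 2 higher between LKO HFD and LKO CD mice, 1 higher and 2 lower between FF HFD and FF CD mice, 2 higher between LKO HFD and FF HFD mice and none between LKO CD and FF CD mice.

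Acute phase proteins are made by hepatocytes in inflammation, as alpha-1-antitrypsin is, and all 20 listed were tested. Lrg1 was 68.8 ± 13.7 (SD, n = 4) RPKM in LKO CD and 172 ± 66.8 (SD, n = 5) RPKM in LKO HFD mice, and its rise of 1.23 passed the test (limma adjusted p = 0.0294). Fgb, a fibrinogen chain, was higher in LKO than in FF mice under HFD (0.91, limma adjusted p = 0.000957), at 2560 ± 553 (SD, n = 5) against 1341 ± 155 (SD, n = 5) RPKM. Orm3, an orosomucoid, was lower (-1.36, limma adjusted p = 0.00747), at 0.81 ± 0.857 (SD, n = 5) against 3.51 ± 1.67 (SD, n = 5) RPKM. Between diets in FF mice Fgb changed by -0.54 (limma adjusted p = 0.0146), which was not called. Orm3 rose there by 1.22 (limma adjusted p = 0.00529), which was called. There were 3 called higher between LKO HFD and LKO CD mice, 1 higher between FF HFD and FF CD mice, 5 higher and 1 lower between LKO HFD and FF HFD mice and none between LKO CD and FF CD mice. Over the 20 genes the median log2 fold change between LKO HFD and LKO CD mice was 0.63, against 0.067 over all tested genes. The 20 genes were measured in the same mice, so their changes are not independent. In LKO HFD mice the SD exceeded the mean for Saa1 (496 ± 610 RPKM) and Lcn2 (31.7 ± 33.3 RPKM), neither called in this comparison. It was smaller than the mean for others, such as Fga (1495 ± 346 RPKM), which was called. Over the 6 lists together, 9 genes were called between LKO HFD and LKO CD mice. These became 0 when mouse 3 of LKO CD or mouse 3 of LKO HFD was left out, 1 without mouse 1 or 4 of LKO CD, 3 to 5 without mouse 2 of LKO CD, mouse 2 of FF HFD or mouse 4 or 5 of LKO HFD, and 20 without mouse 1 of LKO HFD. The 18 called between LKO HFD and FF HFD mice became 8 to 10 without FF HFD mouse 2, 3 or 5 or LKO HFD mouse 3 or 5.

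The genes whose log2(RPKM + 1) followed Serpina1e most closely over the 18 mice were C6 and C8b, components of the terminal complement complex, Egfr, the receptor of epidermal growth factor, and Hsd3b5 and Cyp7b1, enzymes of steroid and oxysterol metabolism. Pearson's r was 0.972, 0.971, 0.954, 0.953 and 0.945, out of 11081 genes compared. After each group's mean was subtracted, r was 0.834, 0.799, 0.650, 0.7101 and 0.724 in the same order. Serpina3k, the Serpina3 member with the largest standard deviation (0.58), was followed most closely by Slco1a1, an organic anion transporter (r = 0.941), C8b (0.932), Slc22a28 (0.912), Nudt7 (0.911) and Hsd3b5 (0.899). The values of a mouse share a library and its depth, and these correlations are a description of the genes that ranked highest.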

How the data were processed

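Liver RNA of 18 mice was sequenced, and the authors deposited for each mouse the RPKM of each gene. Per the labels, total RNA was taken with Trizol, and libraries are described both by a small RNA kit and as standard RNA-seq. The submitters' processing notes name HISAT2 2.0.4, Partek and build mm10. Gene annotation, counting, strandedness and the handling of reads that match several copies are not given in the sources used here. Values were used as deposited.

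Groups follow the titles. With limma 3.58.1 (R 4.3.3), a linear model moderated by eBayes with a mean trend was fitted to log2(RPKM + 1) of the 11090 genes with a mean of at least 0.5 RPKM, with 1 coefficient per group, and p-values (two-sided) were adjusted by the Benjamini-Hochberg method over all of them. Fold changes on this scale understate those of low genes. The mice are separate animals. No p was adjusted over the members alone. Sequences came from GENCODE M21 and RefSeq (GRCm38), and Python 3.11.15 was used for other steps. The members, the gene lists and the tests were chosen with earlier results of these data known. All 10 members are named, with up to 3 called genes per list by size of change, and the 5 genes most like the most variable member of each family. Of the genes this rule names, 1 is not reported here. The fit was tested on simulated data. Alternatives were a pseudocount of 0.1, other filters, rescaling, quantile normalization, a replicate block, only the groups compared, unshared variance, the adjusted p alone and leaving out each mouse.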

Additional observations from a re-analysis of the deposited data

Results flagged for a closer look

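Serpina1e stood at 5356 RPKM in FF CD mouse 3, far from the other 3 mice of its group, of which the nearest was 3311 RPKM. Its gap to them was 0.935 of the range of the group, above Dixon's 95% critical value for 4 mice. Among 40 combinations of member and group, this was the only 1 past its limit, where chance passes about 1 in 20. Without this mouse the log2 fold change of Serpina1e between LKO CD and FF CD mice was -2.28 and was not called (limma adjusted p = 0.177, range over the mice left out 0.00538 to 0.187).

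The values of Serpina1e also lay on opposite sides with diet in the 2 genotypes. All FF HFD mice were below all FF CD mice (log2 fold change -5.91), as was so for 4.24% of all tested genes. All LKO HFD mice were instead above all LKO CD mice (1.28), as was so for 7.71% of all tested genes. The value in LKO mice did not pass the test (limma adjusted p = 0.119) and was called in 0 of 18 fits with a mouse left out. The difference between the genotypes, 7.19 on the log2 scale, was not tested, since these values chose the gene.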

How the results depend on the processing

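The calls in the 2 tested comparisons are fragile. The 1 member called between LKO CD and FF CD mice became 0 with no filter on low values, with quantile normalization, with variance not shared across genes and with the replicate number as a block, and was 0 to 1 with a mouse left out. The 1 called between LKO HFD and LKO CD mice became 0 with no filter, quantile normalization, unshared variance and only the groups compared, and was 0 to 1 with a mouse left out. Between FF HFD and FF CD mice the 5 called became 3 with quantile normalization, and between LKO HFD and FF HFD mice the 2 called became 1 with no filter or only the groups compared, 4 by the adjusted p alone and 1 to 3 with a mouse left out. The cause was not tested, except that more genes are tested without the filter.

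Small values changed sign. Between LKO CD and FF CD mice quantile normalization gave 0.077 for Serpina1b and 0.032 for Serpina1d (log2). Between LKO HFD and LKO CD mice Serpina1b became 0.034 with quantile normalization and lay between -0.069 and 0.065 with a mouse left out, and Serpina1c became 0.016 with rescaling to the same sum, 0.16 with quantile normalization and 0.0076 with the replicate block, and lay between -0.11 and 0.086 with a mouse left out.

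List genes were recounted under the same alternatives, added after the data were seen. Between LKO CD and FF CD mice the count of 0 (851 of all tested genes had an unadjusted limma p under 0.05) became 1 with the replicate block and 0 to 1 with a mouse left out. The 9 called between LKO HFD and LKO CD mice became 1 with no filter, unshared variance or only the groups compared, 15 by the adjusted p alone and 0 to 20 with a mouse left out. The 17 between FF HFD and FF CD mice became 31 by the adjusted p alone, and the 18 between LKO HFD and FF HFD mice became 10 with no filter, 10 with unshared variance, 9 with only the groups compared and 8 to 24 with a mouse left out. The folds of the summed RPKM of both families moved by less than their spread under every alternative run for them.

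Mice of different groups share replicate numbers, which the labels do not tie to a litter or day. Deviations from the group means correlated at a mean r of 0.068 over 25 pairs with the same number (-0.17 to 0.33) and -0.017 over 96 pairs with different numbers, so the numbers were not taken to pair the mice. Beside the changes given above, the block left 1 member called between LKO HFD and LKO CD mice, 4 between FF HFD and FF CD mice and 2 between LKO HFD and FF HFD mice. Depth limits Serpina3c and Serpina3g most.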
